A study of Mus musculus with 5 samples.

Results

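Glycoproteins of the extracellular matrix other than collagens were compared between control and Prmt5cKO forelimbs of mouse embryos: laminins and their basement membrane partners, components of elastic fibres and microfibrils, and matricellular proteins with fibronectin and versican. The list held 42 genes, and 40 of them had a row of their own among 22653 single gene symbols of the deposited expression table, 1 row each. The other 2, Lama5 and Lamb2, appeared only in rows that join several genes. The members were divided by role into 14 basement membrane genes, 16 elastic fibre genes and 10 matricellular genes.

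RNA was sequenced from whole forelimbs of embryos at E11.5 with 47 to 48 somites, of mixed C57BL/6 and Swiss Webster strain, from 3 control and 2 Prmt5cKO samples described as biological replicates. Prmt5cKO embryos had the genotype Prx1Cre+/-;Prmt5c/c, so that the recombinase, which acts in limb mesenchyme, met conditional alleles of Prmt5, an arginine methyltransferase. The control alleles were not given in the sources used here, nor whether controls carried the recombinase. Each gene has 1 FPKM value per genotype (fragments scaled to transcript length and library total), which the authors deposited without values per replicate. No SD can therefore be given, and sequencing depth is not known.

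The basement membrane is a sheet under epithelia and around vessels and muscle, built on laminin trimers of an alpha, a beta and a gamma chain that nidogens and the proteoglycan perlecan tie to collagen IV. Elastic fibres consist of a core of elastin on microfibrils of fibrillin, with fibulins, emilins and microfibril-associated proteins. Some of the LTBPs (latent TGF-beta binding proteins) hold the growth factor TGF-beta on those microfibrils. Matricellular proteins such as tenascin-C, thrombospondin-1 and SPARC act mainly on how cells meet the matrix, and in the limb bud fibronectin and versican surround the mesenchyme before and during cartilage condensation.

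Most members had lower values in Prmt5cKO forelimbs. Among genes at a mean of 1 FPKM or more this held for 14 of 14 elastic fibre genes, 6 of 7 matricellular genes and 11 of 14 basement membrane genes, against 69.8% of all genes. The median of the basement membrane genes was close to that of all genes. A gene was counted as changed where its mean over the genotypes was at least 1 FPKM and the authors' q-value, an adjusted p, was under 0.05. At this level 14 of 35 members fell (40.0%) and 2 rose (5.71%), against 17.6% and 4.39% of 11674 genes. The members were chosen with earlier results of these data known, and the part of that choice in these shares was not tested. A further 12 members did not pass and 7 carried no test by the authors, while 5 of the 40 lay under 1 FPKM. The share of rises is close to that of all genes and is no result about the members. Of 14 elastic fibre genes at this level 9 fell and none rose, of 7 matricellular genes 4 fell and none rose, and of 14 basement membrane genes 1 fell and 2 rose.

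**Figure D1:**
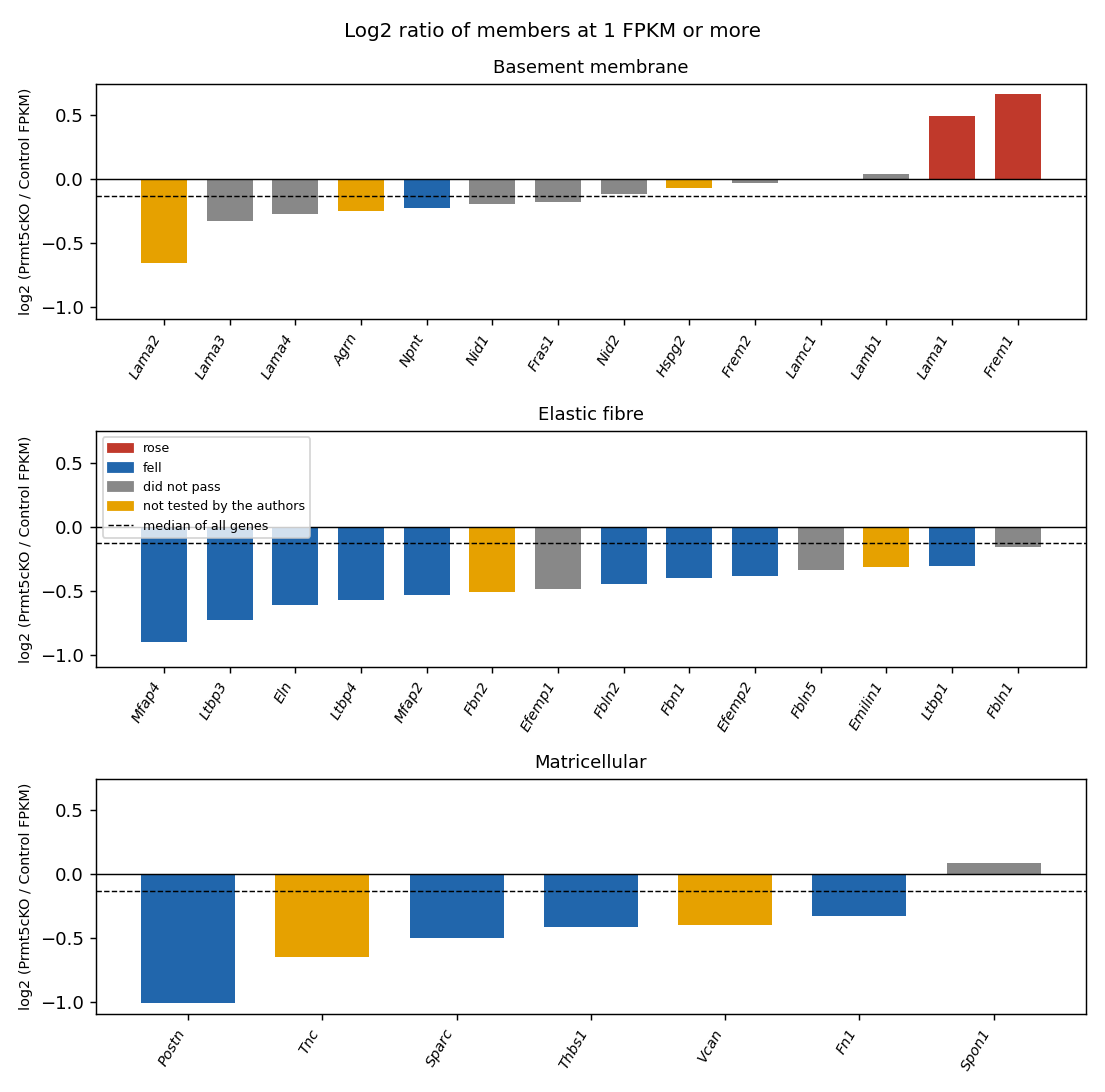
Log2 ratio of Prmt5cKO over Control FPKM for the 35 members at a mean of 1 FPKM or more, in 3 panels by role, coloured by the authors' call, with the median of all genes (-0.13) as a dashed line. All 14 elastic fibre bars lie below 0 and below the dashed line, while basement membrane bars lie on both sides of 0.

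Sequences before the start sites of 5 members that fell are shown first, because these members changed in the same direction and their start sites could be placed. They are the falls for which the RefSeq start lay within 100 bases of the GENCODE 5′ end and the 250 bases before it overlapped no annotated exon. They come from the RefSeq promoter table on GRCm38.p6 and are read on the strand of the gene. The windows are chr3:54360857-54361106 (plus strand) for the matricellular gene Postn, chr17:75005279-75005528 (plus) for Ltbp1, chr19:5740650-5740899 (plus) for Ltbp3, chr19:5473696-5473945 (plus) for Efemp2 and chr3:132950292-132950541 (minus) for Npnt. Capitals mark matches on either strand to the TATA box TATAAA, the GC box GGGCGG, the AP-1 site TGANTCA and the TEAD site GGAATG.
Postn: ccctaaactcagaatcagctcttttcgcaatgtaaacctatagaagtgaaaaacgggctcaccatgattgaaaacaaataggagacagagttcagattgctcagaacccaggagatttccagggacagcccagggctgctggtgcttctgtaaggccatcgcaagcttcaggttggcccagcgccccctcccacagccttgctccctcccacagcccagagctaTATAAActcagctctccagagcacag
Ltbp1: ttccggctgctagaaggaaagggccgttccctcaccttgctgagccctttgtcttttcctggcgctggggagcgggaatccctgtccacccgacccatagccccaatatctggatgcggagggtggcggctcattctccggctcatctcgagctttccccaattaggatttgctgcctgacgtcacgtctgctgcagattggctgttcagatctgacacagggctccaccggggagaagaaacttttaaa
Ltbp3: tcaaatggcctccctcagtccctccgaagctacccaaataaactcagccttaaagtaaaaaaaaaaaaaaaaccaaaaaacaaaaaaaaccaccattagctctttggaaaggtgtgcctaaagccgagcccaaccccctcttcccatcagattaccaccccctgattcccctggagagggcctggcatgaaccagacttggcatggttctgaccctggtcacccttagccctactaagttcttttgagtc
Efemp2: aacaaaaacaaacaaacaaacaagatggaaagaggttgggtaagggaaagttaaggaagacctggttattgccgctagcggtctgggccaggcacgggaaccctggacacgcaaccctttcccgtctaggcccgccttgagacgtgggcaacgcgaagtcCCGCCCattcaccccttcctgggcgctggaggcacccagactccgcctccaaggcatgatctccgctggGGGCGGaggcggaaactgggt
Npnt: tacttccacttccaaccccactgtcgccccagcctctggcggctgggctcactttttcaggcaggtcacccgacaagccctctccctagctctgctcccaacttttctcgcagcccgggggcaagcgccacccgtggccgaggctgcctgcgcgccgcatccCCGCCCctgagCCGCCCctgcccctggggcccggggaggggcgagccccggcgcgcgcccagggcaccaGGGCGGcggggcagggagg
The 5 windows had no single layout in common. Postn held a TATA box from 26 to 21 bases before its start, Npnt held 3 GC boxes, Efemp2 held 2, and none of the 4 motifs matched in the windows of Ltbp1 and Ltbp3. Over the 26 members in the promoter table, with 1 window each, the GC box occurred in 14 (53.8%), against 33.0% of 27025 promoters of the same length. Those 27025 include genes at any level of expression, and the share over genes at 1 FPKM or more was not computed. The members' windows were also richer in G and C, with a median of 59% against 52% of bases. The part of this richness in the GC box share was not tested. Of the same 26 the TATA box was in 3, the AP-1 site in 2 and the TEAD site in 3, where 13.0%, 6.83% and 12.6% of all promoters held these motifs. Of the 10 members that fell and had a window, 5 held a GC box, as did 4 of 6 that did not pass. These pooled windows were not held to the rule for the 5 shown, and some overlap annotated exons. The RefSeq starts of Sparc and Fbn1, for example, lie 3103 and 1555 bases from the GENCODE 5′ end. A match is a string of letters and no measure of binding. Of the changed members, no window of Lama1, Mfap4, Eln, Fn1 or Thbs1 was used here.

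**Figure D2:**
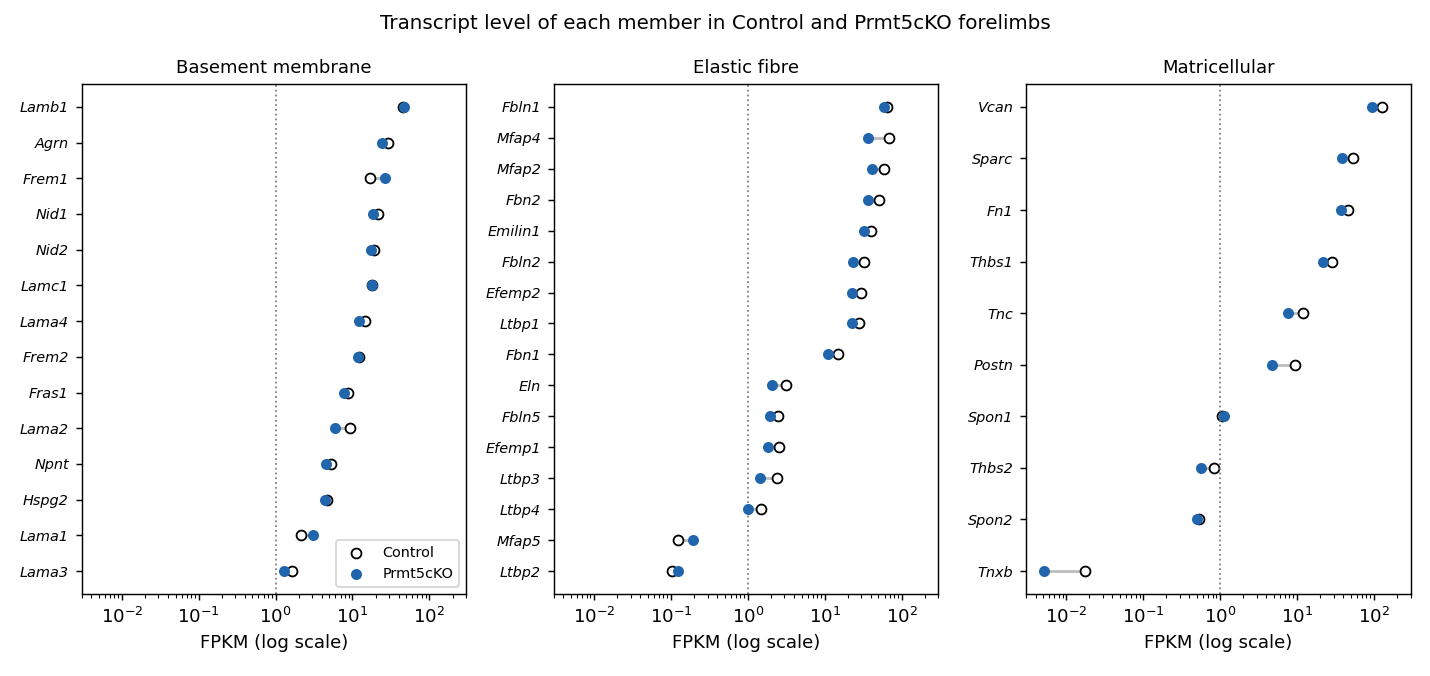
FPKM (log scale) of each of the 40 members in Control (open circles) and Prmt5cKO (filled circles), in 3 panels by role and ordered by mean level, with a dotted line at 1 FPKM. Vcan is the most abundant member, and 5 members lie below the dotted line.

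Elastic fibre and microfibril genes were lower in Prmt5cKO in all 14 cases at 1 FPKM or more, where 69.8% of all genes were lower. Their median log2 ratio, with 1 FPKM added to both values, was -0.37, against -0.12 for all genes, which is a difference of -0.26. Their summed FPKM went from 400.2 in control to 292 in Prmt5cKO, 73.0% of the control sum.

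The microfibril-associated protein gene Mfap4, which lies on chromosome 11 from 61485431 to 61488900 on the plus strand (GRCm38, GENCODE M21), was the most abundant elastic fibre gene in control at 68.4 FPKM and stood at 36.5 in Prmt5cKO. It fell by 0.91 on the log2 scale with q = 2.01e-09 by the authors' deposited table, which placed it 230 among 2049 falls by size. Mfap2, which encodes a small glycoprotein of fibrillin microfibrils (chromosome 4, 141010418 to 141015984, plus strand), went from 59.2 to 40.9 FPKM. Its log2 fold change was -0.53 with q = 6.16e-05 by the authors' deposited table. In control Mfap4 was above Mfap2, and in Prmt5cKO it was below it. The third gene of this family, Mfap5, was under the minimum level at 0.124 and 0.195 FPKM.

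The fibrillins form the backbone of microfibrils. Fbn1 went from 14.8 to 11.2 FPKM, a log2 fold change of -0.40 with q = 8.19e-04 by the authors' deposited table. Fbn2, the fibrillin that prevails in embryonic tissue, had 51.3 FPKM in control against 36.0 in Prmt5cKO (70.2% of control), without a test by the authors. The proportion between the fibrillins hardly moved: Fbn2 was 3.47 times Fbn1 in control and 3.22 times in Prmt5cKO, and its share of their sum was 77.7% and 76.3%.

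Fibulins link elastin, microfibrils and basement membranes. Fbln2 fell from 32.0 to 23.4 FPKM (log2 fold change -0.45, q = 0.00171 by the authors' deposited table). Efemp2, also called fibulin-4 and needed to assemble elastic fibres, fell from 29.3 to 22.4 (-0.39, q = 0.0118 by the authors' deposited table). Fbln1, the most abundant fibulin, did not pass, at 65.1 against 58.3 FPKM (q = 0.126 by the authors' deposited table). Fbln5 went from 2.49 to 1.96 FPKM and Efemp1 from 2.55 to 1.83, both low and not past the threshold, with q = 0.27 and q = 0.149 by the authors' deposited table. All 5 fibulin genes thus had lower values in Prmt5cKO, and 2 of them passed.

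Elastin itself was expressed at a low level at this stage. Eln fell from 3.16 to 2.07 FPKM, a log2 fold change of -0.61 with q = 0.0262 by the authors' deposited table. Emilin1, a glycoprotein at the interface of elastin and microfibrils, was at 39.9 and 32.1 FPKM (80.6% of control) and carried no test by the authors. So the microfibril genes Mfap2, Mfap4 and Fbn2 were far above the elastin core gene in both genotypes on this length-scaled measure.

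Of the LTBPs, Ltbp1 made up 87.5% of the family's summed FPKM in control and 89.8% in Prmt5cKO. It fell from 27.9 to 22.5 FPKM (log2 fold change -0.31, q = 0.00294 by the authors' deposited table). Ltbp3 fell from 2.40 to 1.45 (-0.73, q = 0.0166) and Ltbp4 from 1.48 to 0.996 (-0.58, q = 0.0272 by the authors' deposited table). These 2 lay just above the minimum level, so their folds rest on low values. Ltbp2 was at 0.102 and 0.123 FPKM, under the minimum.

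**Figure D3:**
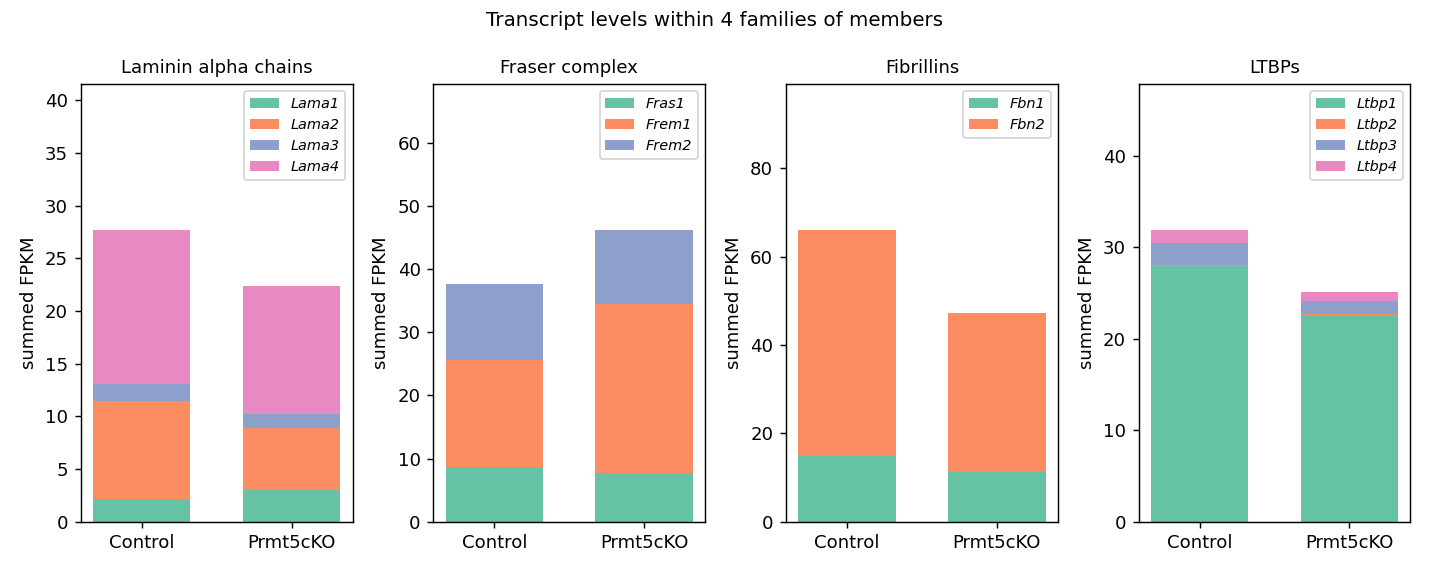
Stacked FPKM of the members of 4 families in Control and Prmt5cKO, with axes that start at 0. The Fraser complex is the family whose sum is higher in Prmt5cKO (46.3 against 37.7), through Frem1, and the sums of laminin alpha chains, fibrillins and LTBPs are lower. The laminin alpha sum leaves out Lama5, which has no row of its own. Lama2 and Fbn2, which are in the lower sums, carried no test by the authors.

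Matricellular genes were lower in Prmt5cKO in 6 of 7 cases at 1 FPKM or more, with a median log2 ratio of -0.40, a difference of -0.28 from all genes. The summed FPKM of the 10 genes went from 280.4 to 207.9, 74.2% of control. The largest part of both sums was Vcan, at 126 and 95.8 FPKM, which like Tnc carried no test by the authors. Postn, which encodes periostin, a protein of periosteum, ligaments and other collagen-rich tissue, had the largest authors' fold change among the members that fell. It lies on chromosome 3 from 54361109 to 54391037 on the plus strand (GRCm38, GENCODE M21) and went from 9.46 to 4.70 FPKM. By the authors' deposited table its log2 fold change was -1.01 and its q was listed as 0, rank 149 among 2049 falls. With 1 FPKM added to both values its log2 ratio (-0.88) was close to that of Mfap4 (-0.89). It was the 1 member past the threshold at 2-fold or more, and also the 1 member among 208 rows of the authors' shorter deposited table, whose smallest absolute log2 fold change was 1.0.

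Sparc, whose product binds collagen and calcium, went down from 54.4 to 38.5 FPKM (a log2 fold change of -0.50, q = 1.02e-05 by the authors' deposited table). Thbs1, thrombospondin-1, which can activate latent TGF-beta, fell from 29.0 to 21.7 (-0.41, q = 9.94e-05 by the authors' deposited table). Fn1, fibronectin, fell from 46.8 to 37.2 (-0.33, q = 1.34e-04 by the authors' deposited table). These 3 were among the more abundant members and their Prmt5cKO values were 70.8% to 79.5% of control, so the falls were modest in size.

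Vcan, which encodes the large hyaluronan-binding proteoglycan versican, was the most abundant member, with 126 FPKM in control against 95.8 in Prmt5cKO, and Tnc, tenascin-C, had 12.1 against 7.71. The authors gave no test for either, and their Prmt5cKO values were 75.9% and 63.9% of control. Spon1, a spondin, did not pass, at 1.07 against 1.14 FPKM (q = 0.788 by the authors' deposited table). The other matricellular genes were under the minimum level: Thbs2 at 0.825 and 0.558 FPKM, Spon2 at 0.527 and 0.504, and Tnxb at 0.0177 and 0.00508. Thbs1 was 35.1 times Thbs2 in control and 39.0 times in Prmt5cKO.

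Basement membrane genes had a median log2 ratio of -0.14, at -0.02 relative to all genes, and their summed FPKM was 208.3 in control and 203.1 in Prmt5cKO, 97.5% of control. That near-equal sum includes the rise of Frem1, while 11 of the 14 genes had lower values and 3 had higher ones. Frem1 was the largest rise among the members. It encodes a protein of the Fraser complex, which holds epidermis to dermis at the embryonic basement membrane, and is a minus-strand gene of chromosome 4 (82897920 to 83052339, GRCm38, GENCODE M21). Its level went from 16.9 to 26.7 FPKM, 158% of control, an authors' log2 fold change of 0.66 (q listed as 0) by the authors' deposited table, rank 132 among 513 rises. The other members of the complex did not pass: Fras1 was at 8.72 and 7.70 FPKM (q = 0.347) and Frem2 at 12.1 and 11.9 (q = 0.825 by the authors' deposited table). Frem1 went from 44.8% to 57.7% of the summed FPKM of the 3 genes.

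Among the laminins, Lama1, whose alpha-1 chain is typical of early embryonic basement membranes, rose from 2.16 to 3.03 FPKM. Its log2 fold change was 0.49 with q = 0.0312 by the authors' deposited table. It lies on chromosome 17 from 67697259 to 67822647 on the plus strand. Lama2, the alpha-2 chain known from muscle, moved the other way, from 9.26 to 5.89 FPKM (63.6% of control), but the authors gave it no test. Lama4, the alpha-4 chain of vessels and mesenchyme, was at 14.7 and 12.2 FPKM (q = 0.145) and the epithelial Lama3 at 1.61 and 1.28 (q = 0.386 by the authors' deposited table). Of the summed FPKM of these 4 alpha chains Lama1 made up 7.77% in control and 13.5% in Prmt5cKO, and Lama2 33.4% and 26.3%.

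The chains that pair with them did not pass and had near-equal values. Lamb1, the most abundant basement membrane gene, was at 45.8 and 47.2 FPKM (q = 0.803) and Lamc1 at 17.9 in both genotypes (q = 0.991 by the authors' deposited table), a Lamb1 level 2.56 and 2.64 times that of Lamc1. The row that joins Lama5 and the microRNA gene Mir7005 stood at 6.33 and 7.50 FPKM (log2 fold change 0.24, q = 0.0789 by the authors' deposited table). The row that joins Lamb2 and the neighbouring Usp19 stood at 40.6 and 39.2 without a test, and what each gene gives to these joint values cannot be read from them.

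Nidogens, which bridge laminin and collagen IV, were at 21.4 FPKM in control and 18.7 in Prmt5cKO for Nid1, and at 19.0 and 17.5 for Nid2, and did not pass (q = 0.295 and q = 0.579 by the authors' deposited table). The heparan sulphate proteoglycan genes Hspg2 (perlecan) and Agrn (agrin) were not tested by the authors. Hspg2 had 4.66 FPKM in control against 4.44 in Prmt5cKO, and Agrn at 28.7 and 24.1. Npnt, nephronectin, a ligand of integrin alpha-8 beta-1 at basement membranes, was the fall in this group. It went from 5.26 to 4.49 FPKM (log2 fold change -0.23, q = 0.0248 by the authors' deposited table), the smallest fall among the 14 and rank 1926 of 2049. The gene of its receptor chain, Itga8, was at 11.9 and 11.7 FPKM (q = 0.893 by the authors' deposited table).

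**Figure D4:**
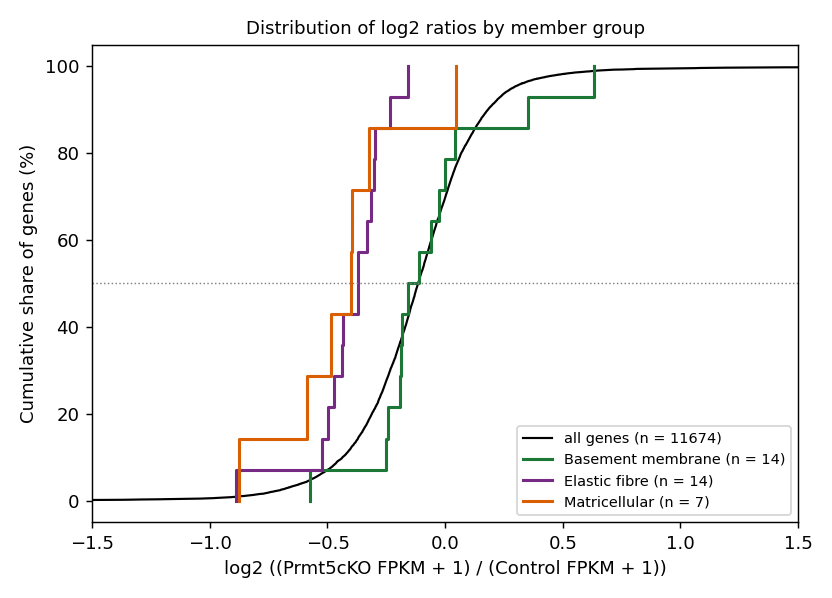
Cumulative share (%) of the members of each group, and of all 11674 genes at 1 FPKM or more, against the log2 ratio with 1 FPKM added. The curve of the 14 basement membrane genes crosses 50% near that of all genes, and the curves of the elastic fibre and matricellular genes cross it further left, at medians of -0.37 and -0.40.

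The whole table leaned downwards, by a median of -0.13 on the log2 scale without a pseudocount, so every fold given stands beside that shift. Without regard to a test 6 members were at least 1.5-fold lower and 1 at least 1.5-fold higher, against 7.76% and 1.97% of all genes. Of the calls, 1 rise and 4 falls reached 1.5-fold, and after centring on the median ratio of all genes 2 rose and 3 fell. The shares of all genes that were called and reached 1.5-fold were not computed, so these counts have no background. Elastic fibre falls occurred at low and high levels. Of elastic fibre genes from 1 to 10 FPKM 3 of 5 fell, and of those at 10 FPKM or more 6 of 9, where 18.0% and 17.2% of all genes fell. No basement membrane gene fell among 8 at 10 FPKM or more. No test of the difference between the groups was made, because only 1 value per genotype is at hand.

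Untested members were frequent: 7 of 35, against 9.05% of all genes at 1 FPKM or more. They were Lama2, Hspg2, Agrn, Fbn2, Emilin1, Tnc and Vcan, and all 7 had lower values in Prmt5cKO, at 63.6% to 95.1% of control. Their longest GENCODE transcripts had a median of 9614 nucleotides and 36 exons, against 5806 nucleotides and 23 exons for the 28 tested members. In the whole table untested genes were also longer, with a median of 5002 against 3281 nucleotides. Among tested members alone 14 of 28 fell and 2 rose, where 19.3% and 4.83% of tested genes did.

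Genes that work with the members were taken from lists of partners. These lists too were chosen with earlier results of these data known, and the part of that choice in the shares below was not tested. Of 20 measured basement membrane partners (collagen IV and related chains, laminin receptors and others) 4 fell and none rose, while 14 did not pass and 2 had no test. Falls were thus about as frequent as among all genes (17.6%). The X-linked collagen IV chain gene Col4a5 fell from 8.67 to 4.49 FPKM, Smoc2 from 13.8 to 8.12 and Smoc1 from 6.08 to 4.31; the log2 fold changes were -0.95, -0.77 and -0.50 by the authors' deposited table. The main collagen IV chain genes Col4a1 (51.4 and 49.8 FPKM) and Col4a2 (34.7 and 35.4) did not pass. Of 18 elastic fibre partners (crosslinking enzymes, related glycoproteins and growth factors that bind microfibrils) 6 fell (33.3%) and 3 rose (16.7%), against 17.6% and 4.39% of all genes, while 8 did not pass and 1 was not tested. Loxl1, an oxidase that crosslinks elastin, fell from 7.14 to 1.93 FPKM, the growth factor gene Gdf5 from 12.9 to 2.67 and Emilin3 from 6.13 to 3.66; the log2 fold changes were -1.89, -2.27 and -0.74 by the authors' deposited table. Lox, the related oxidase, did not pass, at 2.07 against 1.85 FPKM. Tgfb2, a TGF-beta ligand gene, fell by 0.54 on the log2 scale, while Bmp4, Bmp5 and Thsd4 rose by 1.01, 0.28 and 0.25 by the authors' deposited table.

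**Figure D5:**
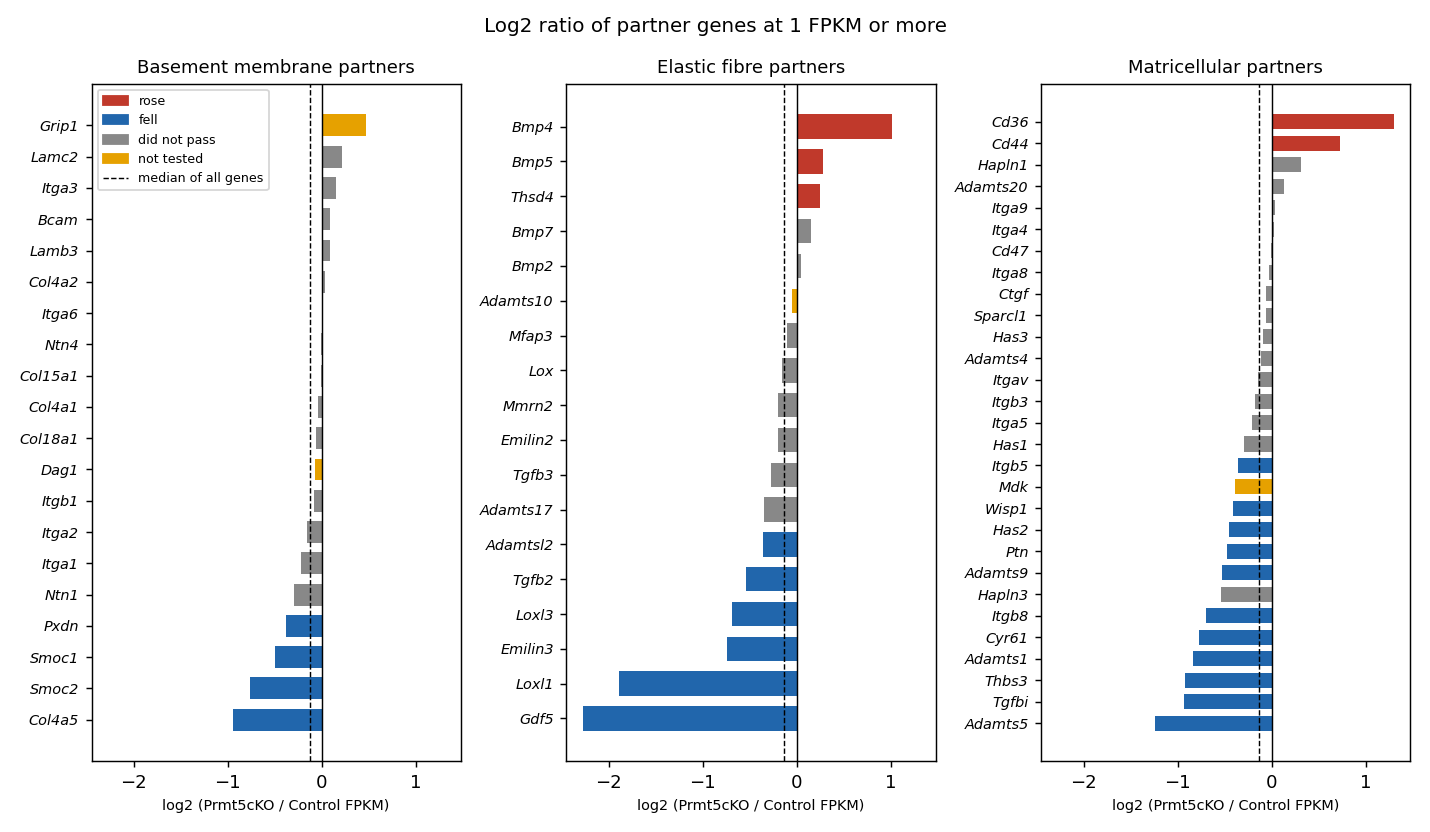
Log2 ratio of Prmt5cKO over Control FPKM for partner genes at 1 FPKM or more, in 3 panels by list, coloured by the authors' call, with the median of all genes as a dashed line. Loxl1 and Gdf5 extend furthest to the left, at -1.89 and -2.27, and collagen IV chains Col4a1 and Col4a2 lie close to 0.

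Of 29 matricellular partners (receptors, related proteins, hyaluronan synthases and matrix proteases) 11 fell (37.9%) and 2 rose (6.90%), against 17.6% and 4.39% of all genes, while 15 did not pass and 1 was not tested. The share of rises is near that of all genes. Adamts5, a protease that cleaves versican and aggrecan, fell from 5.17 to 2.20 FPKM, the secreted Tgfbi from 36.6 to 19.3 and the thrombospondin gene Thbs3 from 14.6 to 7.70; the log2 fold changes were -1.24, -0.93 and -0.92 by the authors' deposited table. Adamts1 and Adamts9, which also cleave versican, fell by 0.83 and 0.53 on the log2 scale by the authors' deposited table. Among receptor genes Itgb8 fell from 5.24 to 3.22 FPKM and Itgb5 from 41.8 to 32.6, with q = 7.11e-07 and q = 0.0187 by the authors' deposited table. The fibronectin receptor gene Itga5 and the fibronectin and vitronectin receptor gene Itgav did not pass, at 8.07 and 6.99 FPKM for Itga5 and 20.2 and 18.3 for Itgav. The rises were the scavenger receptor gene Cd36, from 0.596 to 1.47 FPKM, and the hyaluronan receptor gene Cd44, from 1.63 to 2.69; the log2 fold changes were 1.30 and 0.73 by the authors' deposited table. Both are also expressed in macrophages, whose markers moved in the same direction: 8 of 10 rose, and the sum of 11 went from 34.4 to 62.8 FPKM with none at 0. Their part in these rises was not tested.

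Prmt5 had 40.9 FPKM in control against 12.5 in Prmt5cKO, over a whole-gene row that includes exons outside any deleted part. Of 8 limb mesenchyme markers at hand, among them Prrx2 and Twist1, 7 did not pass and Prrx1 was not tested, and their summed FPKM was 577.5 and 576.6. The sum of 11 surface ectoderm markers was 203.7 and 195.7 FPKM (1 rose, 1 fell), that of 11 endothelial markers 105.9 and 99.4 (1 fell), that of 9 muscle markers 140.7 and 115.1 (2 of 7 at the minimum level fell) and that of 8 nerve markers 28.4 and 24.0 (2 of 5 fell). The sum of 7 red cell markers was 9235 and 7349 FPKM, 79.6% of control beside 79.1% for the members' own sum, with all 7 lower: Alas2 fell, Slc4a1 had no test and the other 5 missed the threshold. Most of that red cell sum was Hbb-y, at 6478 and 4911 FPKM. The members' sum joins groups at 97.5% (basement membrane), 73.0% (elastic fibre) and 74.2% (matricellular) of control. No marker of these lists was at 0. Muscle markers were divided: Myog, Myh3, Actc1 and Tnnt1, which carry most of their sum (81.8% of control), were lower, and the other 5 of 9, among them Pax3, Myf5 and Myod1, had higher values. The part of these cell types in the members' values, Lama2 included, was not tested. In whole forelimbs fewer cells of a type and less RNA per cell cannot be told apart. Xist was at 87.3 and 0.392 FPKM and the Y-linked Ddx3y at 0.0840 and 21.8, so for each difference given here other than that of Prmt5 the sex of the embryos and their genotype cannot be told apart. All 40 members lie on autosomes, 16 of which hold at least 1.

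Exons of 16 of the 40 members overlap exons of another GENCODE gene, with the strand setting of the libraries not given in the sources used here. This applied to 7 of the 14 falls (Mfap4, Fbn1, Eln, Efemp2, Ltbp3, Fn1 and Thbs1) and to neither rise. Mapk7, which overlaps Mfap4 on the opposite strand, rose from 10.9 to 13.4 FPKM, opposite to Mfap4. Mus81, which overlaps Efemp2, fell from 13.1 to 8.91, in the same direction as Efemp2. The other 7 falls, among them Postn, Mfap2 and Sparc, had no such overlap.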

How the data were processed

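RNA-seq of mouse forelimbs at E11.5 (3 Control, 2 Prmt5cKO, grouped by sample title) was used as deposited by the authors. Tools in the submitters' processing notes, with no role stated, were Cufflinks 2.1.1, Bowtie2 2.1.0 and TopHat2 2.0.10, with the build mm10. Annotation, test and the combining of replicates: not given in the sources used here. Each of the 28092 deposited rows holds, per the file headers, an FPKM value for either genotype, the log2 fold change that the authors computed (Prmt5cKO relative to Control) and a q-value. Recomputed log2 FPKM ratios matched those folds to within 1.28e-05 in 20663 rows. Rows with a fold of 0 and q = 1 count as untested. Rows without a gene name (4367, 15.5%, with 1.94% and 2.08% of the summed FPKM) and rows of several genes were left out.

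For each symbol the row with the highest mean was kept. Changed means a mean of at least 1 FPKM and the authors' q under 0.05. The tables hold no values per sample, so no p-value, SD or fit over samples was computed, and whether the authors' q measures the spread between replicates is unknown. List medians are of log2((Prmt5cKO FPKM + 1) / (Control FPKM + 1)), which understates changes of low genes; FPKM does not correct for composition. The counting and medians returned known changes from a simulated table whose calls were set in advance, without the minimum level or the 1 FPKM pseudocount. This checks the arithmetic only and says nothing about the reported counts or medians. Values are given for every changed, untested and low member and the 3 most abundant of each group, and for the 3 largest changes each way in each partner list; other genes were named after their values were seen. The members and lists were chosen with earlier results of these data known. Coordinates and lengths are from GENCODE M21 (GRCm38, mm10), promoters from RefSeq GRCm38.p6, computed with Python 3.11.15, pandas 2.3.3 and numpy 2.4.6.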

Additional observations from a re-analysis of the deposited data

How the results depend on the processing

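Of 80 alternative values, 48 were counts and 32 were medians. In all, 56 kept within the limits set (counts within 1.5 times, medians within 0.1 on the log2 scale) and 24 moved. A reversal was defined for medians only, and 0 of the 32 reversed. Counts of 0 could not grow at the stricter settings, so those values were fixed in advance. The count of all members that fell was 9 at a q under 0.01, 4 at 1.5-fold or more and 3 at 1.5-fold after rescaling by the median ratio, and that of elastic fibre members 5, 3 and 2. Matricellular falls numbered 1 at 1.5-fold or more, also after rescaling, and the single basement membrane fall was lost (0) in these settings, at a q under 0.01 and at a minimum mean of 5 FPKM. The rises, all in the basement membrane group, numbered 1 at a minimum mean of 5 FPKM, at a q under 0.01 and at 1.5-fold. The shares of all genes called were not computed at these stricter settings. Whether the members differ from all genes there cannot be said from the counts. Medians rescaled by the median ratio were -0.18 for all members, -0.0149 for basement membrane, -0.25 for elastic fibre and -0.27 for matricellular members. Quantile normalization gave -0.0051 for basement membrane and -0.26 for elastic fibre members. Relative to all genes, the elastic fibre median lay between -0.34 and -0.25 over the settings run, the matricellular median between -0.37 and -0.27 and the basement membrane median between -0.08 and 0.00. The cause of the moves by level and quantile normalization was not tested; a stricter q or fold keeps fewer genes by construction. Summing all rows of a symbol left the medians as they were, since each member has 1 row. No paired analysis was possible because the tables hold 1 value per genotype, and for the same reason leaving out a replicate could not be run. Depth per sample is unknown, so what it limits cannot be stated.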
